A study of Mus musculus with 10 samples.

Results

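The 46 genes described here encode the digestive enzymes of the lysosome, a few proteins of its membrane and one of its transcriptional regulators. They were chosen by name, as a list of gene symbols drawn up with earlier results of these data known, and no threshold on a measured value decided membership. All 46 were among the 24062 gene symbols counted in each library, and all 46 had 5 or more counts in at least 1 library and were tested. Jejunum of C57BL/6 mice was sampled at postnatal day 5, with 5 libraries per group. The WT group was wild type. The KSR23 group was mice expressing interleukin-23 (IL-23), made by crossing mice that carry a stop-blocked IL-23 cassette (p19 and p40 subunits) in the ROSA26 locus (R23) with mice carrying K14-cre. The keratin 14 promoter drives the cre recombinase in keratinocytes, so the jejunum was not the tissue to which IL-23 was directed. Whether the WT mice carried either transgene alone is not given in the sources used here. The comparison asked how the jejunum of the newborn differs when IL-23 is made in keratinocytes. The libraries were made from whole tissue, so fewer cells of a type and less RNA per cell cannot be told apart.

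Lysosomes receive material from endocytosis and autophagy and break it down at acid pH. Soluble hydrolases reach them by the mannose 6-phosphate receptors, and heavily glycosylated membrane proteins such as LAMP1 and LAMP2 line the compartment. Enterocytes of the suckling small intestine take up milk macromolecules and digest them inside large lysosomal vacuoles, a trait that is strongest in the distal small intestine and is lost at weaning. Macrophages are the other cells of the gut wall that are rich in lysosomal proteases. The transcription factor TFEB (gene Tfeb) binds an E-box with the letters CACGTG, most often within the longer element GTCACGTG, in promoters of many lysosomal genes.

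To show where this element lies, promoters were read from RefSeq sequence of build GRCm38.p6, as windows of 300 bases (250 before and 50 after the start site). Windows were found for 39 of the 46 genes. On either strand, CACGTG was present in 13 of the 39 genes (33.3%) and in 8.09% of all 27025 genes with a window. GTCACGTG, which contains CACGTG, was present in 10 of the 39 (25.6%) and in 2.55% of all genes. Among the 12918 genes with a window that were also tested for expression here, the shares were 10.6% and 4.13%. The following stretches are printed because they belong to the genes whose levels are described next. Each is read 5′ to 3′ on the strand of the gene, with CACGTG, or all of GTCACGTG where it is complete, in capitals (the reverse complement of GTCACGTG reads CACGTGAC).
Lamp1, chr8:13159121-13159150, plus strand: gatgccgactggCACGTGACcacatcacgt
Ctsl, chr13:64370739-64370768, minus strand: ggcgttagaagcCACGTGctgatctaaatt
Glb1, chr9:114401018-114401047, plus strand: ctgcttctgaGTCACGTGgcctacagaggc
Sgsh, chr11:119355522-119355551, minus strand: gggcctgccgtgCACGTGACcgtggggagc
Mcoln1, chr8:3500436-3500465, plus strand: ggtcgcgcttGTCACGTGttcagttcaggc
Lgmn, chr12:102439124-102439153, minus strand: tggaatgtctGTCACGTGgtccattttata
The Lamp1 window held 4 CACGTG sites, of which 1 was within GTCACGTG. The Mcoln1 window held 2 GTCACGTG sites. Windows of Ctsa, Ctsd, Ctsf, Gla, Gaa, Naglu and Arsa also held CACGTG, and those of Ppt1, Gusb, Manba, Pla2g15, Cd63 and Tfeb held no match.

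The WT libraries held 25.5 to 32.0 M counts in genes (M, 1e6) and the KSR23 libraries 31.2 to 60.9 M, so that 3 counts corresponded to 0.0492 to 0.118 counts per 1 M (CPM) on these unscaled totals. Levels of genes and gene lists are given as CPM on totals scaled by trimmed mean of M-values, and the weighted sums of libraries described next used unscaled CPM. The common biological coefficient of variation was 0.498. Counts of 4 Y-linked genes were 492 to 6347 in the WT libraries and 9035, 9, 1, 4330 and 1 in KSR23 replicates 1 to 5. Counts of 9 or less were thus in KSR23 libraries alone, so sex and group cannot be fully told apart. Enterocyte markers were present at a summed 24180 to 70350 CPM in WT and 19380 to 34800 CPM in KSR23, most of it from Apoa1 and Fabp1. Of the 8 enterocyte markers, 4 passed an adjusted p of 0.05 by the edgeR likelihood ratio test. Krt20 (2.22 on the log2 scale) and Cdh1 (1.11) were higher in KSR23, and Fabp1 (-1.01) and Lct (-0.81) were lower. Among these 4, Krt20 alone also passed in replicates 1 to 3 (adjusted p = 0.0108).

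Replicates 4 and 5 of each group mostly lay between the others. They were the highest or lowest of their group in 8.5% to 18.4% of 9737 genes, and replicates 1 to 3 in 45.7% to 75.6%. Over 9766 genes with a mean above 5 CPM, each of these 4 libraries could be written as a weighted sum of replicates 1 to 3 of its own group. The weights were 0.44, 0.54 and 0.017 for WT replicate 4 and 0.78, 0.0015 and 0.22 for WT replicate 5. They were 0.58, 0.25 and 0.16 for KSR23 replicate 4 and 0.014, 0.31 and 0.67 for KSR23 replicate 5. The sum of the weights was not fixed, and each set summed to between 0.987 and 0.998. The median absolute log2 ratio of observed to summed CPM was 0.0744 to 0.131 in these libraries. It was 0.338 to 1.32 when replicates 1 to 3 were written as sums of the other 2 of them, and 0.962 to 2.71 when replicates 4 and 5 were written from the opposite group. Of the 46 lysosomal genes, 44, 41, 38 and 31 were within 0.2 log2 units of the sum in WT replicates 4 and 5 and KSR23 replicates 4 and 5. The labels list these libraries as separate samples and say nothing of pooling. P-values from 5 libraries a group treat them as independent, so the calls among the 46 genes are also given from replicates 1 to 3 alone. The SDs and the absence of overlap given below likewise count all 5 libraries. Where replicates 4 and 5 lie near the sum, they add little to either beyond replicates 1 to 3.

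Of the 46 lysosomal genes, 14 differed between the groups at an adjusted p under 0.05 with all 10 libraries, in edgeR's likelihood ratio test with Benjamini-Hochberg adjustment over all 17632 genes tested. These were 30.4% of the 46, where 18.5% of all tested genes were called. The calls were 7 higher in KSR23 (15.2% against 9.73% of all genes) and 7 lower (15.2% against 8.76%). The quasi-likelihood F test of edgeR called the same 14, against 15.4% of all genes (8.47% higher and 6.91% lower). The median log2 fold change of the 46, KSR23 over WT, was -0.02, against 0.03 for all tested genes, with a range of -2.46 to 2.11. In 10 of the 46 (21.7%) the 2 groups had no overlap in CPM, as in 14.4% of all tested genes. The 46 genes were highly expressed, with a median level at percentile 95.5 of all tested genes, and 20.9% of the 9737 genes with a mean above 5 CPM were called. The genes that rose were Ppt1, Gusb, Pla2g15, Manba, Glb1, Asah1 and Ctsc, and those that fell were Ctsl, Lamp1, Ctsh, Cd63, Ctsk, Aga and Sgsh.

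Replicates 1 to 3 alone gave the same sign for 43 of the 46, including all 14. In them the likelihood ratio test called 2 of the 46, Ppt1 (higher, adjusted p = 0.000686) and Ctsl (lower, adjusted p = 0.047), where 3.36% of all tested genes were called (2.01% in the higher and 1.35% in the lower direction). By the quasi-likelihood F test 0 of the 46 were called, with 9 at an unadjusted p under 0.05, against 0.812% of all genes called. For the other 12 genes the adjusted p in replicates 1 to 3 was 0.0809 (Pla2g15), 0.213 (Lamp1), 0.262 (Gusb), 0.27 (Glb1), 0.296 (Manba), 0.319 (Ctsh), 0.398 (Asah1), 0.439 (Ctsc), 0.507 (Cd63), 0.537 (Ctsk), 0.577 (Aga) and 0.731 (Sgsh). With all other libraries kept, leaving out 1 library ended the call of Sgsh in 9 of 10 cases, of Ctsk in 6, of Aga in 4, of Ctsc in 3 and of Cd63 in 1. With the level of Y-linked genes as a covariate, an alternative added after seeing the data, 4 of the 14 calls were lost. Ctsk then had a log2 fold change of -1.05 (adjusted p = 0.0653) and Glb1 one of 0.74 (adjusted p = 0.095), while Asah1 was at 0.53 (adjusted p = 0.205) and Ctsc at 0.43 (adjusted p = 0.416).

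**Figure D1:**
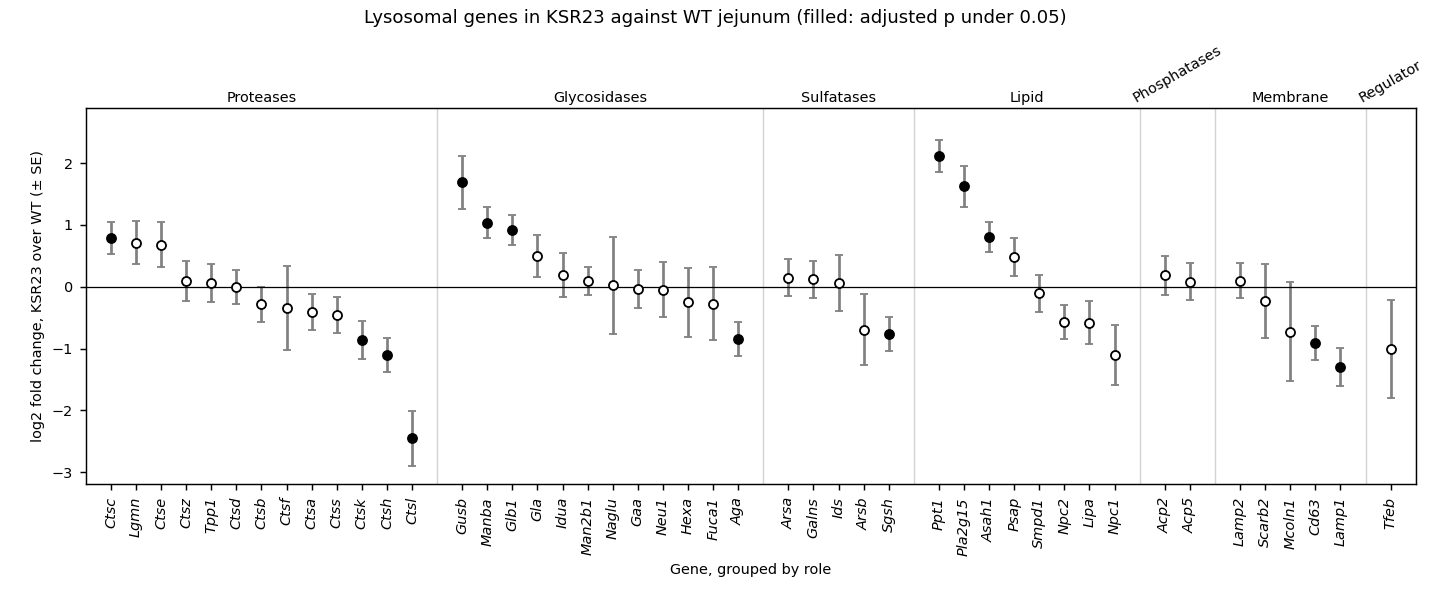
The log2 fold change of each of the 46 genes (KSR23 over WT, all 10 libraries, y axis) with its standard error, grouped by role and ordered within a role. Filled points passed an adjusted p under 0.05 in edgeR's likelihood ratio test. They run from Ctsl at -2.46 to Ppt1 at 2.11, with both directions among the proteases and the glycosidases.

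**Figure D2:**
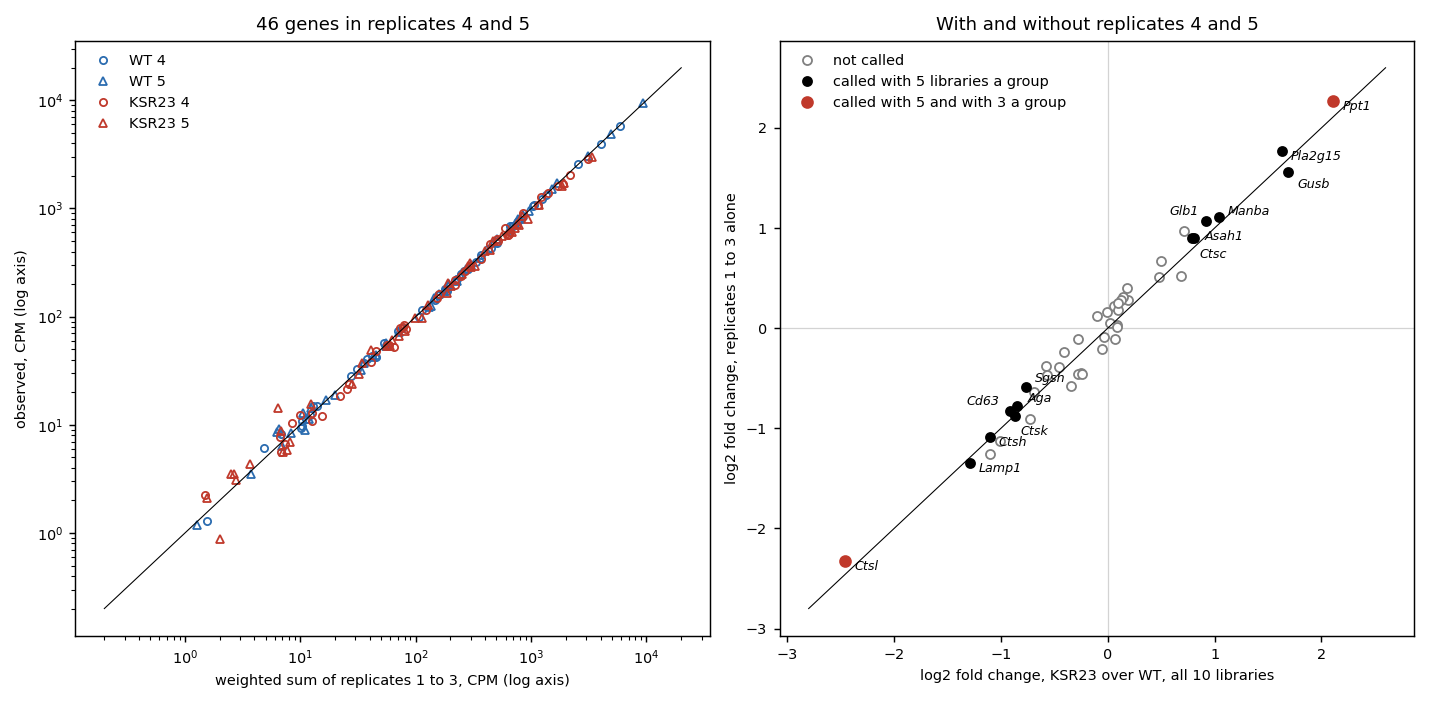
Left, observed CPM (y axis, log) against the weighted sum of replicates 1 to 3 of the same group (x axis, log) for the 46 genes in replicates 4 and 5, 1 symbol per library, with the line of equality. Right, the log2 fold change of each gene with all 10 libraries (x axis) and with replicates 1 to 3 alone (y axis), in which Ppt1 and Ctsl (red) were called both ways.

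The proteases are mostly cathepsins, named by letter, and they differed in direction. Ctsl, which encodes the cysteine protease cathepsin L, had the largest fall. It had 301184, 69630, 235953, 185047 and 246537 counts in WT replicates 1 to 5. It had 148401, 13458, 36420, 83208 and 32507 counts in KSR23 replicates 1 to 5. These were 9323, 2462, 8658, 5329 and 9257 CPM in WT, and 2111, 434, 1448, 1474 and 918 CPM in KSR23. Every KSR23 library was below every WT library, though WT replicate 2 stood close to KSR23 replicate 1. The mean fell from 7006 ± 3026 to 1277 ± 633 CPM (SD, n = 5 each; log2 fold change -2.46, SE 0.443, adjusted p = 5.08e-06; quasi-likelihood adjusted p = 0.0043). In replicates 1 to 3 the log2 fold change was -2.32. Ctsl lies on chromosome 13, 64359337 to 64370890 (mm10, minus strand).

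Ctsh (cathepsin H, an aminopeptidase; chromosome 9, 90054152 to 90076089) had 8058, 7585, 9666, 8810 and 7258 counts across the WT replicates, against 10232, 5448, 2014, 7705 and 3958 across the KSR23 replicates. On the CPM scale these were 249 to 355 in WT and 80.1 to 176 in KSR23, with no overlap. The raw counts overlap because the KSR23 libraries were larger. On the log2 scale Ctsh fell by 1.11 (SE 0.271, adjusted p = 0.000839), with a fold change of -1.09 in replicates 1 to 3 (adjusted p = 0.319). Ctsk (cathepsin K, the collagen-degrading protease of osteoclasts) was at a low level, 14.0 ± 3.10 CPM in WT against 7.69 ± 1.98 in KSR23 (mean ± SD, n = 5 each; log2 fold change -0.87, adjusted p = 0.0309), and its groups overlapped. Ctsc (cathepsin C, which activates serine proteases of leukocytes) was the 1 protease that rose, from 172 ± 25.9 to 297 ± 74.7 CPM (SD, n = 5 each; log2 fold change 0.79, SE 0.263, adjusted p = 0.0204). KSR23 replicate 1, at 197 CPM, lay within the WT range of 149 to 203.

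Cathepsins D and B, found in the lysosomes of nearly all cells, were not called. Ctsd, the aspartic protease cathepsin D, had 27335, 13010, 15616, 22083 and 20664 counts across the WT replicates, and 38095, 18044, 23420, 29320 and 24809 across those of KSR23. Its means were 658 ± 155 and 655 ± 169 CPM (SD, n = 5 each; log2 fold change -0.01, SE 0.274, adjusted p = 0.99). Ctsb, the cysteine protease cathepsin B, had 167989, 73426, 94235, 127674 and 128825 counts in WT. In KSR23 it had 193552, 86118, 116984, 147351 and 123324. For Ctsb the difference was -0.28 on the log2 scale (SE 0.282, adjusted p = 0.547). In both genes the groups spanned nearly the same range of CPM, with WT replicate 1 the highest WT library and KSR23 replicate 3 the highest KSR23 library. Lgmn, the asparaginyl endopeptidase legumain, lay 0.71 higher in KSR23 on the log2 scale (SE 0.346, adjusted p = 0.145), with overlapping groups. The remaining proteases were Ctsa, Ctse, Ctsf, Ctss, Ctsz and Tpp1 (tripeptidyl peptidase 1), with log2 fold changes from -0.46 (Ctss) to 0.68 (Ctse) and adjusted p from 0.196 to 0.926. Ctse was at a low level, 0.55 to 2.43 CPM over all libraries.

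Of the 12 glycosidases, which remove sugars from glycoproteins, glycolipids and glycosaminoglycans, 3 rose and 1 fell. The share called was 33.3%, against 18.5% of all tested genes. Gusb (β-glucuronidase; chromosome 5, 129989011 to 130003049) had 3001, 6939, 9664, 6205 and 3872 counts across the WT replicates, while the KSR23 replicates had 64208, 26184, 6034, 46293 and 16393. The CPM were 92.9, 245, 355, 179 and 145 in WT, and 913, 844, 240, 820 and 463 in KSR23. The groups overlapped at 1 library, KSR23 replicate 3, which lay below WT replicates 2 and 3. Gusb rose by 1.69 on the log2 scale (SE 0.425, adjusted p = 0.00155, and 0.0179 by the quasi-likelihood F test). Gusb was uneven within both groups, 3.82-fold from the lowest to the highest WT library and 3.81-fold in KSR23.

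Manba (β-mannosidase; chromosome 3, 135485611 to 135571404) had 1159, 1313, 877, 1367 and 981 counts across the WT replicates and 4551, 3132, 1907, 4113 and 2724 across the KSR23 replicates. All KSR23 libraries (64.7 to 101 CPM) were above all WT libraries (32.2 to 46.4 CPM). The rise was 1.04 on the log2 scale (SE 0.254, adjusted p = 0.000836). Glb1 (β-galactosidase, which also splits lactose and GM1 ganglioside) rose from 626 ± 115 to 1180 ± 202 CPM without overlap (SD, n = 5 each; log2 fold change 0.92, SE 0.246, adjusted p = 0.00275). Tmppe, a gene whose exons overlap those of Glb1 on the same strand, was also higher (log2 fold change 2.12, adjusted p = 1.3e-10, and 0.00582 in replicates 1 to 3), and 2.99% of the 75-base stretches of Glb1 are shared with other counted genes. Aga, which cleaves the link between asparagine and sugar, fell from 107 ± 24.1 to 59.1 ± 13 CPM (SD, n = 5 each; log2 fold change -0.85, adjusted p = 0.0163), and KSR23 replicate 3 at 80.5 CPM overlapped WT replicate 2 at 72.6 CPM. Hexa, Neu1, Gla, Gaa, Naglu, Man2b1, Fuca1 and Idua were not called, with log2 fold changes from -0.27 (Fuca1) to 0.50 (Gla).

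Of the 5 sulfatases, which remove sulfate from glycosaminoglycans or sulfatide, 1 fell. The share called was 20%, near the 18.5% of all tested genes. Sgsh (heparan N-sulfatase) had 12.5 ± 1.69 CPM in WT against 7.35 ± 1.56 in KSR23 without overlap (mean ± SD, n = 5 each; log2 fold change -0.76, SE 0.278, adjusted p = 0.0379). Sgsh shares 17.0% of its 75-base stretches with Card14 on the opposite strand, which was higher in KSR23 (log2 fold change 1.45, adjusted p = 1.28e-06, and 0.0555 in replicates 1 to 3). Whether the authors counted by strand is not given in the sources used here. Arsa, Arsb, Galns and Ids were not called, with log2 fold changes of 0.15, -0.69, 0.12 and 0.06.

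The lipid enzymes and transporters held the largest rise. Ppt1 (palmitoyl-protein thioesterase 1, which removes fatty acids from proteins; chromosome 4, 122836242 to 122859175, plus strand) had 6161, 4170, 3527, 5719 and 4847 counts in WT. It had 35459, 25192, 22257, 30877 and 27180 counts in KSR23. The CPM were 191, 147, 129, 165 and 182 in WT, and 504, 812, 885, 547 and 767 in KSR23. The lowest KSR23 library was well above the highest WT library. The mean rose from 163 ± 25.0 to 703 ± 168 CPM (SD, n = 5 each; log2 fold change 2.11, SE 0.258, adjusted p = 5.35e-13; quasi-likelihood adjusted p = 9e-05). In replicates 1 to 3 the log2 fold change was 2.27. There the likelihood ratio test gave an adjusted p of 0.000686, and the quasi-likelihood F test one of 0.0537. Cap1, which overlaps the exons of Ppt1 on the opposite strand, was also higher (16.4 to 48.5 CPM on average; log2 fold change 1.56, adjusted p = 0.000136, and 0.0814 in replicates 1 to 3), at a far lower level than Ppt1.

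Pla2g15 (the lysosomal phospholipase A2; chromosome 8, 106150399 to 106164715) had 407, 206, 208, 315 and 296 counts across the WT replicates and 1578, 665, 1202, 1231 and 1206 across the KSR23 replicates. The KSR23 libraries lay at 21.4 to 47.8 CPM and the WT libraries at 7.28 to 12.6 CPM. Pla2g15 rose by 1.63 on the log2 scale (SE 0.334, adjusted p = 5.08e-05). Asah1 (acid ceramidase) rose from 148 ± 10.4 to 259 ± 48.0 CPM without overlap (SD, n = 5 each; log2 fold change 0.80, SE 0.237, adjusted p = 0.00729). Smpd1 (acid sphingomyelinase), which makes the ceramide that Asah1 cleaves, had a log2 fold change of -0.10 (adjusted p = 0.861), and Psap, the precursor of the saposin cofactors, of 0.48 (adjusted p = 0.308). Over the 8 lipid genes, 4 log2 fold changes were positive and 4 negative. The genes of cholesterol handling were not called. Lipa (acid lipase) had a log2 fold change of -0.58 (adjusted p = 0.268), Npc1 of -1.11 (adjusted p = 0.108) and Npc2 of -0.57 (adjusted p = 0.138).

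**Figure D3:**
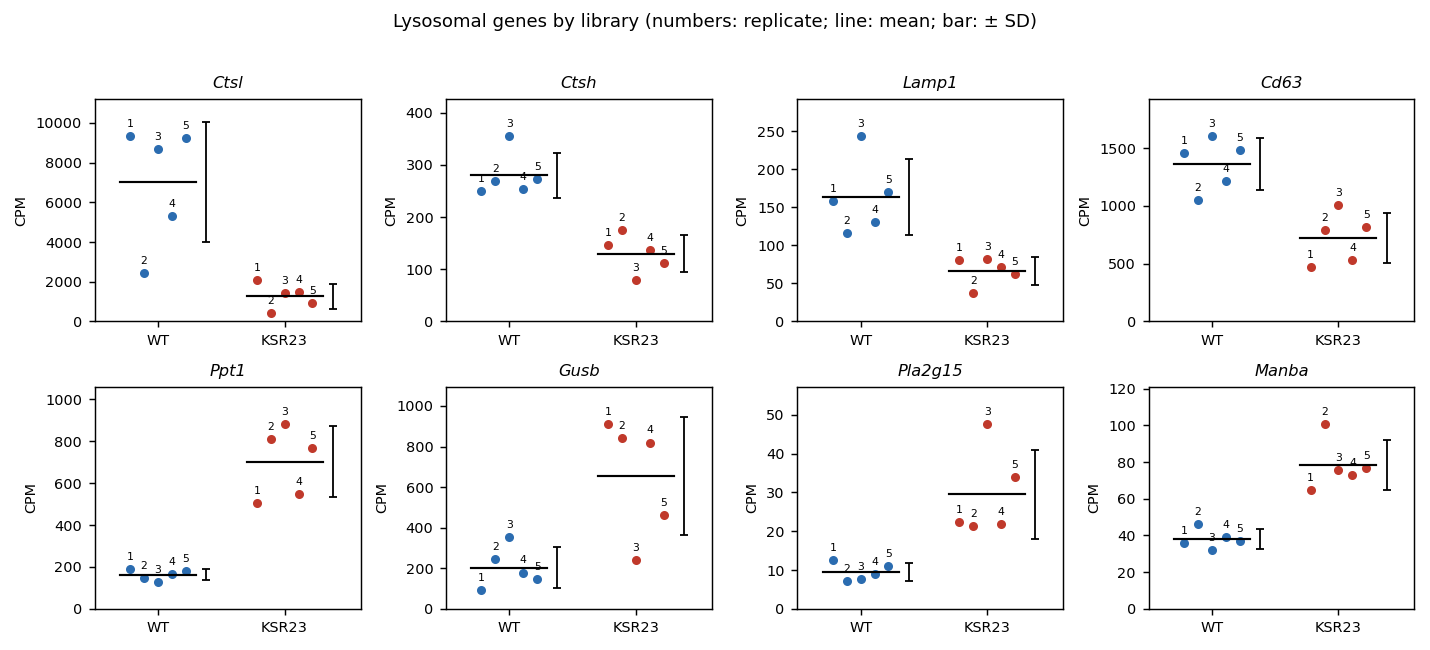
CPM (y axis, starting at 0) in each library of WT (blue) and KSR23 (red) for the 8 genes Ctsl, Ctsh, Lamp1, Cd63, Ppt1, Gusb, Pla2g15 and Manba. Points carry the replicate number, the line is the mean and the bar the SD. The groups do not overlap except in Gusb, where KSR23 replicate 3 lies among the WT libraries.

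Of the 5 membrane proteins, 2 fell (40% called, against 18.5% of all tested genes). Lamp1, a main glycoprotein of the lysosomal membrane (chromosome 8, 13159161 to 13175338), had 5104, 3291, 6632, 4522 and 4524 counts across the WT replicates, against 5638, 1144, 2065, 4055 and 2214 across the KSR23 replicates. This was 116 to 243 CPM in WT and 36.9 to 82.1 in KSR23, with no overlap. Lamp1 fell by 1.29 on the log2 scale (SE 0.309, adjusted p = 0.000621), with a fold change of -1.35 in replicates 1 to 3 (adjusted p = 0.213). Grtp1, which overlaps Lamp1 on the opposite strand, was not called (84.5 CPM on average in WT and 42.1 in KSR23, adjusted p = 0.2). Lamp2, the other main membrane glycoprotein, was at 660 ± 126 CPM in WT against 707 ± 223 in KSR23 (mean ± SD, n = 5 each; log2 fold change 0.10, adjusted p = 0.858). Cd63, a tetraspanin of late endosomes and exosomes, fell from 1363 ± 222 to 723 ± 219 CPM without overlap (SD, n = 5 each; log2 fold change -0.91, SE 0.277, adjusted p = 0.00943). Scarb2, the receptor that carries β-glucocerebrosidase, and Mcoln1, the calcium channel mucolipin 1, were not called (log2 fold changes -0.24 and -0.73). The 2 acid phosphatases Acp2 and Acp5 had log2 fold changes of 0.18 and 0.08, with adjusted p of 0.748 and 0.89. By edgeR's likelihood ratio test 0 of these phosphatases was called, with 0 at an unadjusted p under 0.05 and 0 called by DESeq2.

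Tfeb had 154, 1173, 972, 896 and 232 counts across the WT replicates, and 2145, 177, 14, 950 and 145 across those of KSR23. These were 4.77, 41.5, 35.7, 25.8 and 8.71 CPM in WT, and 30.5, 5.71, 0.556, 16.8 and 4.09 CPM in KSR23. Each group held both high and low libraries. WT replicates 2 and 3 lay above all KSR23 libraries, KSR23 replicates 3 and 5 lay below all WT libraries, and the other 6 libraries overlapped. The log2 fold change was -1.01 (SE 0.793, adjusted p = 0.423). Of the called genes with a promoter window, 4 of 11 (36.4%) held CACGTG, and of the genes not called 9 of 28 (32.1%) did. Lamp1, Ctsl and Sgsh, whose stretches are printed above, fell, and Glb1 rose.

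To determine how much of the lysosomal transcript pool these changes touched, the 46 genes were summed. The sum was 17590 to 29550 CPM in WT (25430 ± 5212, SD, n = 5) and 18110 to 22440 CPM in KSR23 (19620 ± 1788). Ctsl alone made up 26.3% ± 7.66 of the sum in WT and 6.43% ± 3.07 in KSR23. Without Ctsl the sums were 18420 ± 2187 and 18340 ± 1580 CPM, which differed by less than the spread between replicates. Levels were then divided by the merged exon length of each gene, for an approximate order between genes. That length joins the exons of every annotated transcript (6489 bases for Ctsl, 1358 for Ctss), whether or not the transcript was present here. The order therefore depends on the annotation as well as on the counts. In WT, Ctsl came first at 1080 ± 466 CPM per kb, followed by Ctsz at 764 ± 253, Ctsb at 653 ± 175 and Ctss at 557 ± 75.4. Neighbours in this order differed by less than the larger of their SDs. In KSR23, Lgmn came first at 856 ± 219 CPM per kb, then Ctsz at 812 ± 270, and Ctsl was ranked 9 at 197 ± 97.6. Ppt1 moved from rank 23 in WT to rank 11 in KSR23. Ctse and Npc1 were lowest in both groups.

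**Figure D4:**
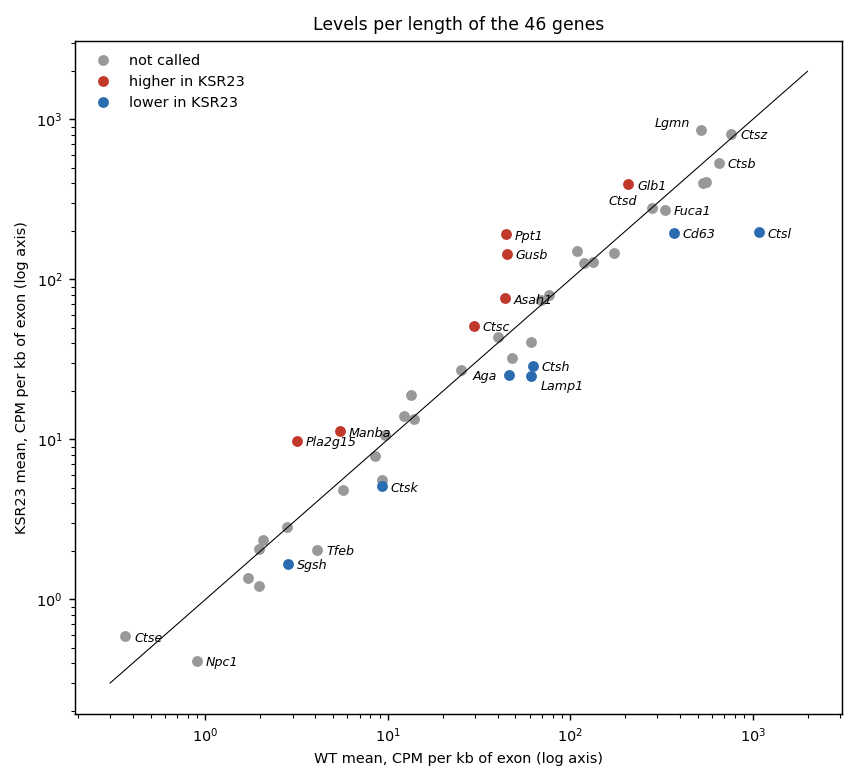
Mean CPM per kb of merged exon in WT (x axis, log) and KSR23 (y axis, log) for the 46 genes, with the line of equality. Ctsl lies below the line, at 1080 CPM per kb in WT and 197 in KSR23, and Ppt1 and Gusb lie above the line.

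Several of the genes varied widely within both groups. Of the 45 with a mean above 5 CPM, 12 (26.7%) differed over 3-fold between the lowest and the highest library in both groups, as did 20.5% of all 9737 genes at that level. The 12 were Ctsf, Ctsl, Hexa, Neu1, Gusb, Naglu, Fuca1, Arsb, Npc1, Scarb2, Mcoln1 and Tfeb. Fuca1, which removes fucose, had 295, 1460, 2050, 966 and 627 CPM in WT and 1340, 1260, 123, 1170 and 581 CPM in KSR23. Hexa, a glycosidase of ganglioside breakdown, had 115, 445, 670, 297 and 214 CPM in WT and 534, 296, 56.4, 425 and 148 CPM in KSR23. Mcoln1 had 15.8, 72.3, 165, 53.0 and 43.4 CPM in WT and 118, 7.0, 7.51, 70.4 and 7.99 CPM in KSR23. WT replicate 1 and KSR23 replicate 3 were the lowest of their groups together in 12 of the 46 genes, among them 7 of the 12 uneven ones, and in 26.5% of all 9737 genes. In replicates 4 and 5 of both groups, 34 of the 48 values of these 12 genes were within 0.2 log2 units of the weighted sum described above, and the largest gap was 0.684, in Naglu of KSR23 replicate 5. Tfeb, on unscaled totals, was observed at 27.97, 8.89, 18.5 and 3.54 CPM in WT replicates 4 and 5 and KSR23 replicates 4 and 5, where the weighted sums were 27.6, 10.9, 21.95 and 2.53 CPM.

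**Figure D5:**
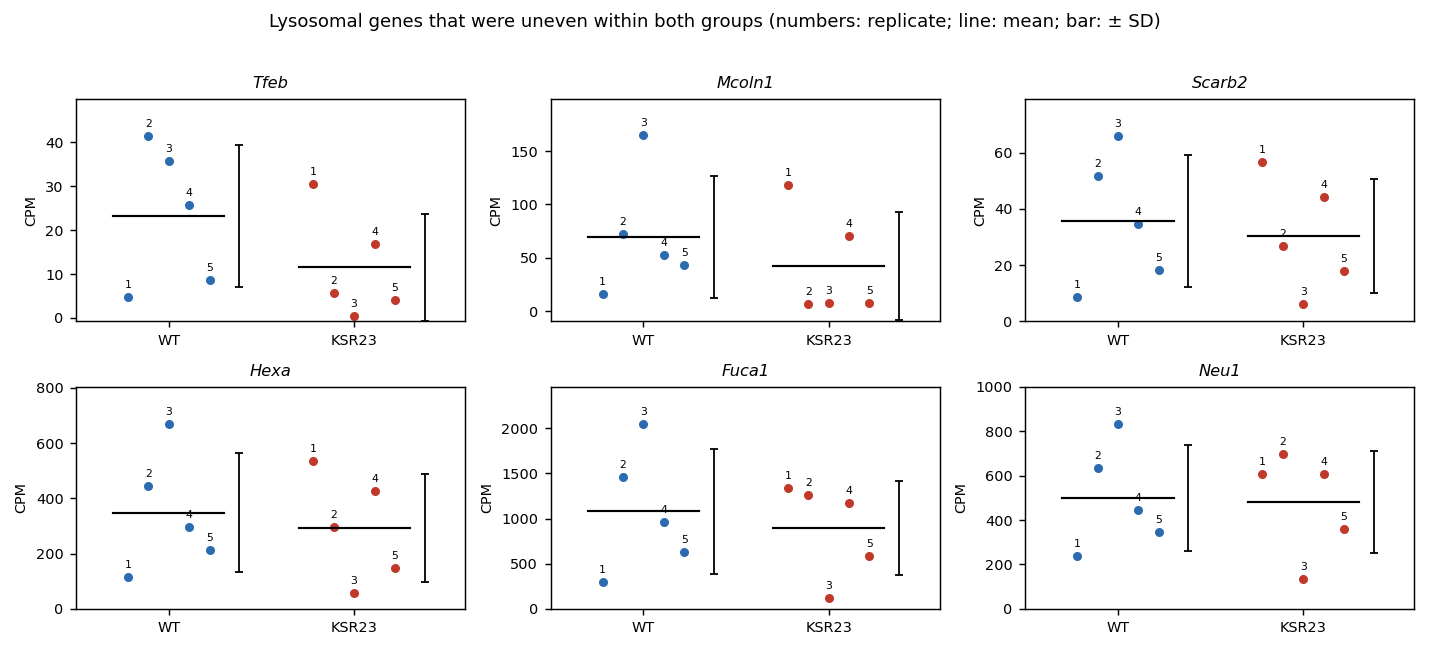
CPM (y axis) in each library of WT (blue) and KSR23 (red) for Tfeb, Mcoln1, Scarb2, Hexa, Fuca1 and Neu1. Points carry the replicate number, the line is the mean and the bar the SD. WT replicate 1 is the lowest WT library in all 6, and both groups hold high and low libraries.

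Of 125 further genes on 5 lists of lysosomal and related genes, 121 were tested and 10 (8.26%) were called, where 18.5% of all tested genes were. They are named other lysosomal genes below for short, and where each product lies in the cell was not examined. Of the 10, 4 were higher (3.31% against 9.73% of all genes) and 6 lower (4.96% against 8.76%), with a median log2 fold change of -0.06. Among 32 other hydrolases and cofactors, Smpdl3b, a phosphodiesterase related to acid sphingomyelinase, rose from 6.43 ± 1.07 to 68.9 ± 33.7 CPM (SD, n = 5 each; log2 fold change 3.42, adjusted p = 2.32e-15), and it was called in replicates 1 to 3 as well (adjusted p = 0.000104). Ctso and the sulfatase gene Arsg fell (log2 fold changes -1.06 and -1.35). Among 21 subunits of the vacuolar proton pump, which acidifies the lysosome, 0 were called by the likelihood ratio test, the quasi-likelihood F test or DESeq2, with 4 at an unadjusted p under 0.05 in the first. Among 30 other membrane proteins, the amino acid transporter Slc36a1 rose (1.53), and Mcoln3 (-0.92) and Slc15a4 (-1.09) fell, without a call for the last pair in the quasi-likelihood F test. Among 19 genes of mannose 6-phosphate targeting and sorting, Sort1 (1.18) and Gga3 (1.11) rose. Among 19 genes of TFEB relatives and lysosomal mTORC1 control, the Ragulator genes Lamtor2 (-1.02) and Lamtor5 (-0.76) fell, and Tfe3, which encodes a relative of TFEB, was not called (0.67, adjusted p = 0.409). In replicates 1 to 3, Smpdl3b was the 1 gene of the 121 that was called.

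Markers of cells rich in lysosomes were summed beside these results. The 13 macrophage markers summed to 989 to 1165 CPM in WT and 742 to 951 CPM in KSR23. Of these 13, 2 (Cd14 and Cd163) were higher and 3 (Cd68, C1qb and C1qc) lower, none was at the floor in all libraries, and none was called in replicates 1 to 3. Of 10 neutrophil markers 9 were counted, at a summed 21.3 to 31.6 CPM in WT and 22.5 to 59.5 CPM in KSR23. Within that sum Ltf (lactoferrin) rose from 1.89 to 30.5 CPM on average (adjusted p = 1.46e-19, and in replicates 1 to 3 also called) and Retnlg fell from 15.0 to 2.18 CPM (adjusted p = 4.38e-13, also called in replicates 1 to 3), both without overlap. Elane had 0 counts in all WT libraries and was near the floor in KSR23 (4, 7, 3, 3 and 0 counts). It passed the filter through KSR23 alone, so its call as higher carries no weight on direction. It was not called by the quasi-likelihood F test (adjusted p = 0.0838) or by likelihood ratio in replicates 1 to 3 (adjusted p = 0.068). S100a8 and S100a9 were not called. The 6 markers of the endocytic enterocytes of the suckling gut summed to 12130 to 17480 CPM in WT and 1530 to 9894 CPM in KSR23 without overlap, with 2 lower (Fcgrt and Cubn) and 1 higher (Prdm1), of which none was called in replicates 1 to 3. That sum was mostly Fcgrt, the neonatal Fc receptor (14895 CPM on average in WT and 4988 in KSR23). The other 5, mostly Dab2, summed to 704 to 807 CPM in WT and 267 to 1044 CPM in KSR23, which overlapped. Within them Cubn (cubilin, an endocytic receptor) was at 50.2 CPM on average in WT and 9.50 CPM in KSR23 without overlap (log2 fold change -2.40, adjusted p = 0.000112, and 0.151 in replicates 1 to 3). Markers of the stomach, mostly the milk-clotting protease Cym, summed to 1163 to 2044 CPM in WT and 2.89 to 13.1 CPM in KSR23. Of those 9 gastric genes, 4 were at or under 3 counts in every library and 3 were called lower, of which Cym and Gkn3 were also called in replicates 1 to 3 and Atp4a was not. Pancreatic acinar markers summed to 99.2 to 218 CPM in WT and 5.90 to 15.9 CPM in KSR23. All 6 acinar genes tested were called lower by the likelihood ratio test, and Ctrb1, Cela1 and Prss2 also in replicates 1 to 3. Prss1 and Prss2, with at most 1 count in any KSR23 library, passed the filter through WT alone, which fixed their direction. Cpa1 was not called by the quasi-likelihood F test (adjusted p = 0.0595). Chymotrypsinogen B1 (Ctrb1) fell from 82.2 to 0.269 CPM on average without overlap (adjusted p = 3.96e-41). Of the 7 mesenchymal markers, Acta2 alone was called (log2 fold change -0.77, adjusted p = 0.0351, and 0.717 in replicates 1 to 3). Markers of the proximal small intestine (890 to 1465 CPM in WT, 1210 to 2103 in KSR23) and of the distal part (6.07 to 29.2 and 1.87 to 44.9 CPM) overlapped between the groups. The proximal sum was mostly Slc40a1, which was not called. In the same list Cybrd1 fell from 28.1 to 8.60 CPM without overlap (adjusted p = 1.75e-07, and 0.0413 in replicates 1 to 3), and in the distal list Slc10a2, under 1 CPM on average in both groups, was called higher (adjusted p = 0.0384, and 0.519 in replicates 1 to 3). The part of these cell types and regions in the differences of the lysosomal genes was not tested.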

How the data were processed

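RNA from whole jejunum at postnatal day 5, in 5 WT and 5 KSR23 libraries, was, per the labels, primed with oligo-dT from picogram inputs, amplified by PCR and sequenced as single-end reads. No molecular identifiers were used, so PCR copies cannot be recognised, and floors cover counting error only. Per the submitters' processing notes and the paper's methods, the authors mapped reads to mm10 with TopHat2 2.1.0 and counted them per gene with HTSeq 0.6.1p1. The deposited values were raw counts per gene symbol and library, not normalized by the authors. Whether RNA was pooled before a library was made is not given in the sources used here. Reads with more than 1 alignment (8.62 to 17.1 M per library, M being 1e6) entered no gene and were not used here.

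Groups and replicate numbers came from the sample titles. The study calls the libraries of a group biological replicates, but no label ties a library to a mouse, so p-values measure the spread between these samples. The 17632 genes that reached 5 counts in any library were fitted in edgeR 4.0.16 (R 4.3.3) with TMM factors and the group as the only term. Groups were compared by likelihood ratio, as in the study, with Benjamini-Hochberg adjustment over all genes. Alternatives were the quasi-likelihood F test, DESeq2 1.42.0, other size factors and filters, a replicate block, replicates 1 to 3 alone and leaving out each library, and, added after seeing the data, the log2 CPM of Y-linked genes as a covariate. Replicates 4 and 5 were also written as weighted sums of replicates 1 to 3 by non-negative least squares on unscaled CPM, weighted by the inverse square root of the CPM, a description added after seeing the data. The edgeR fits were tested on simulated libraries drawn independently, so that test does not cover libraries close to weighted sums of others. The weighted sums were tested on simulated mixtures of known weights.

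Positions, exon lengths and shared 75-base stretches came from GENCODE M21, in which 22750 of the 24062 symbols matched. The 46 genes and all lists were chosen with earlier results of these data known. The naming rule gave counts in every library for called genes with an absolute log2 fold change of 1 or more and for Ctsd, Ctsb, Lamp1 and Tfeb, up to 3 called genes in each direction of each other lysosomal list, and marker genes whose level stands beside a result.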

Additional observations from a re-analysis of the deposited data

Results flagged for a closer look

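Among 92 groups of 5 libraries (46 genes in each of 2 groups), 5 held a library far from the other 4 by Dixon's criterion on log2 CPM. For independent values chance gives about 1 in 20 groups, here 4.6. That rate may not hold here, because replicates 4 and 5 lay close to weighted sums of replicates 1 to 3. Ctse in WT replicate 3 was at -0.73 log2 CPM, with 15 counts against 31 to 46 in the other WT libraries. Ctsf in KSR23 replicate 3 was at -0.62 log2 CPM, with 15 counts against 178 to 604. Ctsh in WT replicate 3 was at 8.47 log2 CPM, with 9666 counts against 7258 to 8810. Naglu in WT replicate 3 was at 4.06 log2 CPM, with 454 counts against 118 to 195. Ids in KSR23 replicate 2 was at 1.04 log2 CPM, with 62 counts against 262 to 850. Of these genes only Ctsh was called, and it kept its call when any 1 of the 10 libraries was left out. In replicates 1 to 3 alone Ctsh was not called (adjusted p = 0.319, likelihood ratio test).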

How the results depend on the processing

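Of 920 fold changes of the 46 genes under alternatives, 801 kept their direction and side of the threshold. The called genes Ctsl, Ctsh, Gusb, Manba, Glb1, Asah1, Pla2g15, Ppt1 and Lamp1 kept their calls without any 1 library. Replicates 4 and 5 lay close to weighted sums of replicates 1 to 3, so a library left out could still be reflected in them. Of these genes, Ctsl and Ppt1 alone kept their calls in replicates 1 to 3 by the likelihood ratio test. Calls were lost for Ctsc without WT replicate 3 or 4 or KSR23 replicate 5 (adjusted p up to 0.0715), for Cd63 without KSR23 replicate 4 (0.0567), for Aga without WT replicate 1 or 5 or KSR23 replicate 2 or 4 (up to 0.0759), for Ctsk without 6 of the 10 libraries (up to 0.112) and for Sgsh without any library but KSR23 replicate 3 (up to 0.145). Npc2 was called with library totals alone (-0.69) and without KSR23 replicate 3 (-0.76), and Npc1 without KSR23 replicate 1 (-1.40).

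With replicates 1 to 3 alone, the genes called higher fell from 1716 to 346 of all genes, from 7 to 1 of the 46 and from 4 to 1 of the other lysosomal genes, and those called lower from 1545 to 233, from 7 to 1 and from 6 to 0. The quasi-likelihood F test on these libraries gave 99, 0 and 1 higher and 41, 0 and 0 lower. Fewer libraries entered these fits. With Y-linked counts as a covariate, 1025 of all genes and 4 of the 46 were higher, with Glb1, Asah1, Ctsc and Ctsk (lower) not called. DESeq2 gave 11 and library totals 10 lower calls among the other lysosomal genes. Leaving out 1 library gave 3 to 8 lower calls among the 46 (3 without KSR23 replicate 4, and 4 without WT replicate 1 or 5 or KSR23 replicate 2), and among the other lysosomal genes 4 to 9 higher (9 without KSR23 replicate 3, and 7 without WT replicate 2 or KSR23 replicate 1) and 3 to 9 lower (3 without WT replicate 1 or 5 or KSR23 replicate 2). The cause was not tested.

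The replicate numbers did not pair the samples: same-numbered libraries correlated at -0.74, 0.406, -0.689, 0.359 and 0.486, and 1 of 5 WT libraries matched its own number best. The replicate block gave 1082 higher calls among all genes, 5 higher and 4 lower among the 46 and 3 lower among the other lysosomal genes. It ended the calls of Aga (adjusted p = 0.0715), Asah1 (0.0754), Ctsk (0.0966), Ctsc (0.126) and Sgsh (0.134).

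Fold changes near 0 changed sign. With Y-linked counts as a covariate, Acp2 was -0.22, Gaa 0.21, Lamp2 -0.25, Neu1 0.0284, Scarb2 0.0174 and Tpp1 -0.21. With library totals, Ids was -0.0367, Lamp2 -0.0294, Man2b1 -0.0017 and Tpp1 -0.0778. With replicates 1 to 3, Ctsd was 0.16, Ids -0.11 and Smpd1 0.13. With the replicate block, Ids was -0.11 and Naglu -1.06. Leaving out 1 library moved Ctsd from -0.17 to 0.10, Ctsf from -0.61 to 0.0257, Ctsz from -0.0204 to 0.30, Tpp1 from -0.16 to 0.20, Hexa from -0.53 to 0.13, Neu1 from -0.23 to 0.21, Gaa from -0.12 to 0.12, Naglu from -0.87 to 0.56, Fuca1 from -0.52 to 0.0927, Galns from -0.0491 to 0.30, Ids from -0.17 to 0.38, Smpd1 from -0.24 to 0.0304, Acp2 from -0.0342 to 0.34, Acp5 from -0.0491 to 0.26, Lamp2 from -0.0803 to 0.24 and Scarb2 from -0.53 to 0.10.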
